A study of Mus musculus with 3 samples.

Results

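Cytosolic ribosomal protein genes were examined in LT-HSCs, long-term haematopoietic stem cells, which sit in bone marrow and renew the blood. Members were the genes whose symbol named a protein of the large (Rpl, Rplp) or small (Rps, Rpsa) subunit of the cytosolic ribosome. Ribosomal S6 kinases and genes whose symbol marks a pseudogene were left out. The rule found 59 of 23185 named genes, 38 of the large and 21 of the small subunit. Of 84 mouse RefSeq genes that fit the same symbol pattern, the other 25, among them Rps6, Rpl11 and Rplp2, were not analysed here.

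The groups were 8Gy FLASH, 8Gy CDR and non-irradiated, with 1 array each. FLASH is dose delivery at an ultra-high rate, and CDR is taken here in its general use, for conventional dose rate. Total body irradiation of 8 Gy was given to both irradiated groups, and 10000 LT-HSCs were taken from bone marrow 15 days later. All mice were female C57Bl/6 of 8 to 10 weeks with no transgene named, and neither the number of animals behind each array nor the sorting gate is given in the sources used here. Values are the authors' log2 levels, and a difference is one array's log2 level minus another's. With 1 array per group no test was possible, "higher" and "lower" describe these arrays, and the precision of each value is limited by the number of arrays.

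Each ribosome holds 1 copy of nearly every ribosomal protein, and a cell must make them in balance with one another and with ribosomal RNA. Their mRNAs begin with a C followed by a run of pyrimidines, the terminal oligopyrimidine (TOP) tract, through which mTORC1 and Larp1 control their translation as a group. Haematopoietic stem cells are known for a low rate of protein synthesis, and loss of 1 copy of a single ribosomal protein gene causes Diamond-Blackfan anaemia in humans, in which red cell precursors fail.

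The promoter DNA of members is shown first, to look for the start sequence described above. Members were picked by symbol, and the sequence was not part of the rule. Sequences are promoter entries from RefSeq on build GRCm38.p6, and 45 of the 59 members had an entry among those used here. Each line runs from 60 bases before the annotated start to 20 bases from it, and capitals mark a C followed by at least 6 bases that are C or T. The first 7 genes read at least 1.5-fold higher on an irradiated array and the last 5 lay within 0.20 of the non-irradiated level on the log2 scale on both; all 12 have 1 annotated start, and the last 5 were chosen after their values were seen to show the tract.
Rps13 (chr7:116334171-116334250, minus strand): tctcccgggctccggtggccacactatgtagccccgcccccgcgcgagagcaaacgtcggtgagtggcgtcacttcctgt
Rps15 (chr10:80292371-80292450, plus strand): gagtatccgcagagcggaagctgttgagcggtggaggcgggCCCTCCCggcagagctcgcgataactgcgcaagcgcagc
Rps2 (chr17:24720003-24720082, plus strand): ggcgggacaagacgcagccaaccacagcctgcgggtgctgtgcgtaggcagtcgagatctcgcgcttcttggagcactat
Rpl9 (chr5:65391412-65391491, minus strand): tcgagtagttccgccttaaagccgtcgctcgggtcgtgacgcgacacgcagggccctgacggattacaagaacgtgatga
Rpl13 (chr8:123102290-123102369, plus strand): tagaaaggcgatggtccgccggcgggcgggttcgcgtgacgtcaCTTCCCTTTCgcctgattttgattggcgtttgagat
Rpl5 (chr5:107900468-107900547, plus strand): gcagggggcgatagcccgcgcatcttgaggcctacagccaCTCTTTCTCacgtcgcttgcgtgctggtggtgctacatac
Rpl36a (chrX:134585594-134585673, plus strand): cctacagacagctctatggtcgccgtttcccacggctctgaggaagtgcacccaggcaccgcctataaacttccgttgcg
Rpl4 (chr9:64173327-64173406, plus strand): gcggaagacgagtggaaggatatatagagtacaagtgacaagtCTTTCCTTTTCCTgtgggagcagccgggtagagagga
Rps9 (chr7:3703981-3704060, plus strand): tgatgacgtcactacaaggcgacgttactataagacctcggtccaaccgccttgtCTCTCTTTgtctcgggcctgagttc
Rpl15 (chr14:18270967-18271046, minus strand): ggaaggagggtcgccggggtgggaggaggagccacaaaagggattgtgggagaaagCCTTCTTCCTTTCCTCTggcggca
Rpl27a (chr7:109519135-109519214, plus strand): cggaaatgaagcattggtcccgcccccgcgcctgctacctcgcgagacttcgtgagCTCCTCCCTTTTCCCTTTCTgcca
Rps25 (chr9:44407654-44407733, plus strand): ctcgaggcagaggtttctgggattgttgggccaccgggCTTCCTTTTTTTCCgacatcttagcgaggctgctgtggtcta

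Within 20 bases on either side of the annotated start, such a tract stood on the transcribed strand in 23 of 45 members (51.1%), against 21.4% of all 27025 genes with a promoter entry and 21.7% of the protein-coding ones. On the opposite strand it stood in 6 of 45 members, against 23.4% of all genes. Among the 7 members with an entry that read at least 1.5-fold higher on an irradiated array, 3 held the tract on the transcribed strand (Rps15, Rpl13 and Rpl5), and so did 20 of the other 38. Over the whole 300-base entry and on either strand, the ETS factor motif CCGGAAG was found in 16 of 45 members (35.6%, all genes 9.93%) and the YY1 motif AAGATGGC in 4 (8.89%, all genes 3.19%). The GC box GGGCGG was found in 28 (62.2%, all genes 38.2%), the E-box CACGTG in 5 (11.1%, all genes 8.09%) and the TATA box TATAAA in 5 (11.1%, all genes 15.7%). Among protein-coding genes alone the shares were 12.9% for CCGGAAG, 3.57% for AAGATGGC, 49.2% for GGGCGG, 8.91% for CACGTG and 14.8% for TATAAA. The reverse complement of CCGGAAG can overlap a pyrimidine tract. A gene with several annotated starts counted once if any start held the motif, and a match describes letters in a window, not a site in use.

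Detection was judged against 1364 olfactory, vomeronasal and trace amine receptor genes, which were assumed silent in these cells. The 95th percentile of their levels was each array's detection level, and a gene counted as detected in a comparison if the brighter array exceeded its own. It stood at 4.22 for FLASH, 4.16 for CDR and 4.15 for non-irradiated. Of the 59 members, 55, 55 and 54 read above it on those arrays. Below it on all 3 arrays were Rpl3l, the striated muscle copy of Rpl3, Rpl10l, the testis copy of Rpl10, Rpl32l and also Rpl10 itself, an essential protein of the large subunit. Rpl10 read 3.46 on FLASH and on CDR, against 3.39 on the non-irradiated array. Rplp1, a protein of the stalk that recruits translation factors, had the highest value of any named gene on each array, at 13.17 on FLASH, 13.28 on CDR and 13.17 on the non-irradiated array. A probe set's level depends on its probes as well as its RNA, so members are not ranked by level here. In RNA from a sorted population, fewer cells of a type and less RNA per cell cannot be told apart.

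The FLASH and CDR arrays were each set against the non-irradiated array to ask how ribosomal protein genes stood 15 days after irradiation at each dose rate. Most members read nearly the same on all arrays, and a few read far higher on the irradiated ones. Over the 55 detected members the median difference was 0.04 on FLASH and 0.01 on CDR, against a median of 0.00 over all detected genes in both comparisons. Of all 59 members, 37 lay within 0.20 of the non-irradiated log2 level on both irradiated arrays. The share of all genes this close was not counted, so the number does not show members to be steadier than other genes. Over all 59 members the SD of differences was 0.35 on FLASH and 0.38 on CDR, against 0.32 and 0.34 over all named genes. Over detected members it was 0.36 and 0.39, against 0.40 and 0.43 over all detected genes. The mean differences were larger than the medians, at 0.17 on FLASH and 0.19 on CDR, because the members that stood apart were all on the higher side. Without Rps2, which is treated below, the means were 0.16 and 0.18.

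On the FLASH array 5 of 55 detected members (9.09%) were at least 1.5-fold higher than on the non-irradiated array, where 3.59% of 13288 detected genes were, and 0 members were at least 1.5-fold lower, where 5.3% of detected genes were. On the CDR array 8 of 55 (14.5%) were at least 1.5-fold higher, where 3.2% of 13448 detected genes were, and again 0 were at least 1.5-fold lower, where 5.38% of detected genes were. In either direction the shares of all detected genes past 1.5-fold were 8.89% on FLASH and 8.58% on CDR. Past 2-fold on the higher side by measured values were 4 members on FLASH and 5 on CDR, Rps2 among them, beside 1.17% and 0.766% of detected genes, and 0 members were 2-fold lower, beside 1.75% and 2.36%. Rps2 was detected only through the irradiated arrays and therefore had to differ. Without it 4 of 54 members on FLASH and 7 of 54 on CDR were at least 1.5-fold higher, and 3 and 4 at least 2-fold. Both irradiated arrays were set against the same non-irradiated array, so that a low value there would raise both differences at once.

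**Figure D1:**
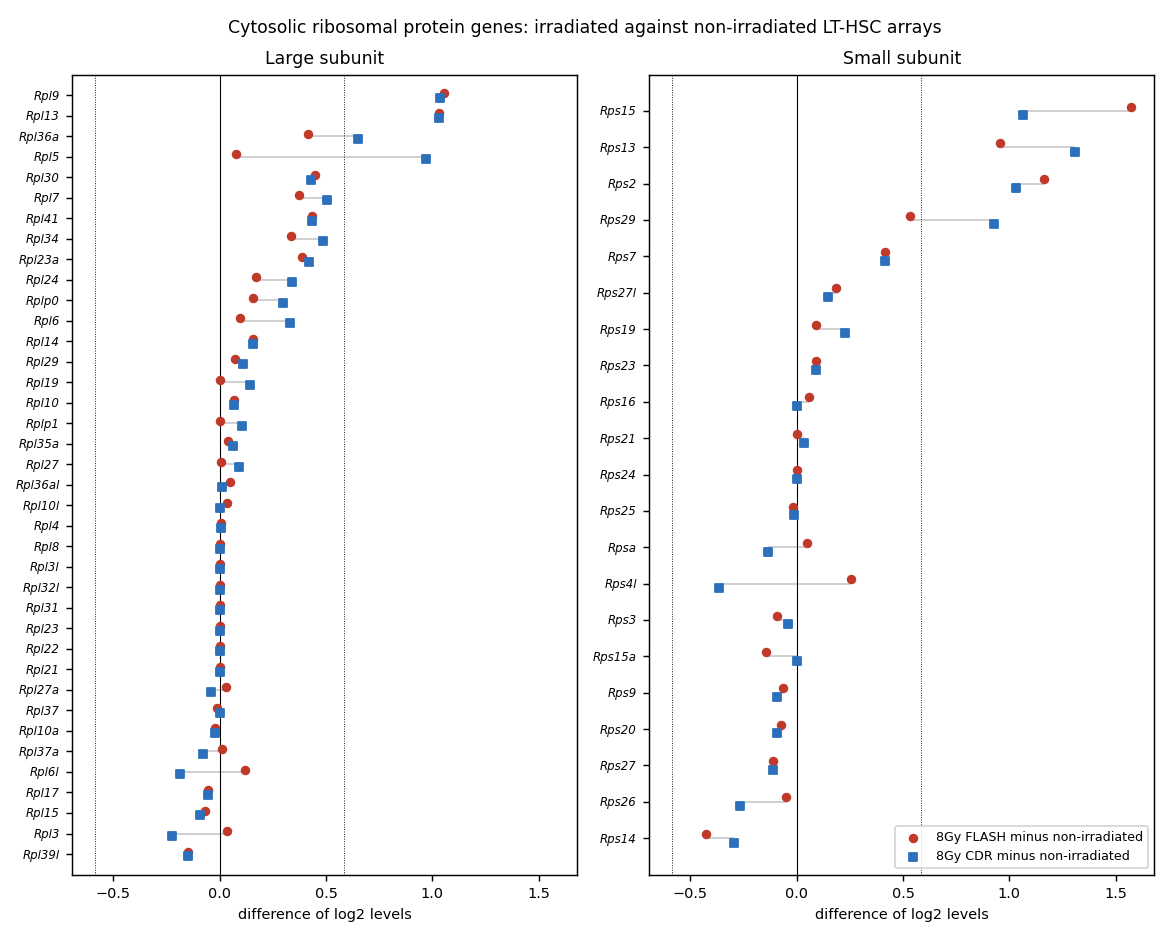
Difference of log2 levels (x axis) for each of the 59 members (y axis), 8Gy FLASH minus non-irradiated as red circles and 8Gy CDR minus non-irradiated as blue squares, with dotted lines at 1.5-fold. Most genes lie near 0, 8 lie past the right dotted line on at least 1 array, and none lies past the left one.

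Among small subunit genes, Rps15 differed most on the FLASH array. It encodes a head protein near the decoding site and read 6.38 on FLASH and 5.87 on CDR, against 4.81 on the non-irradiated array, differences of 1.57 (2.98-fold) and 1.06 (2.09-fold). Rps13, a protein that joins early in small subunit assembly, read 7.31 on FLASH and 7.67 on CDR, against 6.36 on the non-irradiated array. Its differences were 0.95 (1.94-fold) and 1.31 (2.48-fold), the largest of any member on CDR. Rps2, at the mRNA entry channel, read 4.81 and 4.68 on FLASH and CDR, against 3.65 on the non-irradiated array, which is below the detection level. Its folds are given as bounds against that level, at least 1.58 on FLASH and at least 1.44 on CDR. Rps29, a zinc-binding protein of the head that is mutated in some human Diamond-Blackfan anaemia, read 5.85 on FLASH and 6.25 on CDR, against 5.32 on the non-irradiated array. The differences of Rps29 were 0.53 and 0.93, so that only its CDR value passed 1.5-fold. All 4 read higher on both irradiated arrays than on the non-irradiated one.

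Among large subunit genes, Rpl9, which lies near the base of the stalk, read 6.75 on FLASH and 6.73 on CDR, against 5.70 on the non-irradiated array. Its differences were 1.06 (2.08-fold) and 1.03 (2.05-fold). Rpl13, a structural protein of the large subunit, read exactly the same on both irradiated arrays, 8.22, against 7.19 on the non-irradiated array, a difference of 1.03 (2.04-fold). Rpl36a, a protein of the tRNA exit site, read 8.94 on FLASH and 9.17 on CDR, against 8.52 on the non-irradiated array, differences of 0.42 and 0.65. For Rpl9 and Rpl13 the irradiated arrays lay close together and above the non-irradiated one, while Rpl36a lay between on FLASH. Rpl5 stood apart from them. It forms a particle with Rpl11 and the 5S ribosomal RNA that can bind the p53 inhibitor Mdm2, and it read 6.25 on FLASH and 7.14 on CDR, against 6.17 on the non-irradiated array. The difference of Rpl5 was 0.08 on FLASH and 0.97 (1.96-fold) on CDR.

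**Figure D2:**
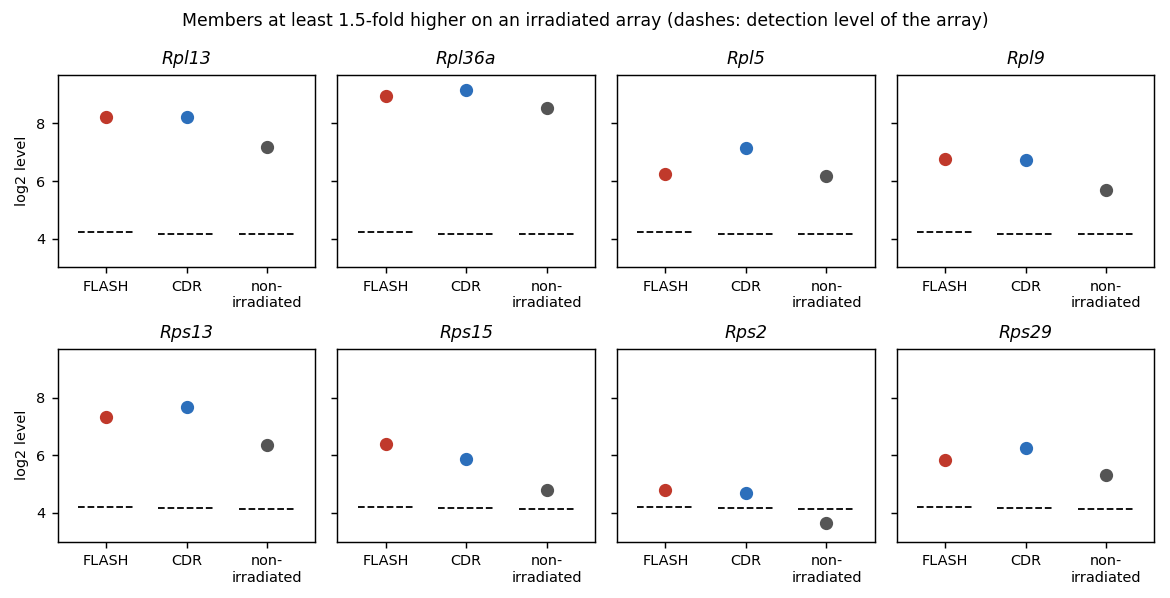
Log2 level (y axis) of the 8 members at least 1.5-fold higher on an irradiated array, with a point for each array (8Gy FLASH, 8Gy CDR, non-irradiated) and a dash at that array's detection level. Rpl5 reads 7.14 on CDR beside 6.25 on FLASH and 6.17 on the non-irradiated array, and the non-irradiated value of Rps2 is the only point under its dash.

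Below these 8, 6 further members were higher by more than 0.32 on the log2 scale on both irradiated arrays. The share of all detected genes past 0.32 was not counted, so this number says nothing about members beside other genes. Rpl30 read 7.43 on FLASH and 7.41 on CDR, against 6.98 on the non-irradiated array. Rpl41, the smallest ribosomal protein, stood at 0.43 on both. The differences of Rps7, a further Mdm2 binding protein, were equal at 0.41 on both arrays. Those on FLASH and CDR were 0.39 and 0.42 for Rpl23a, a protein of the polypeptide exit, 0.34 and 0.49 for Rpl34, and 0.37 and 0.50 for Rpl7. Further along, Rpl24 stood at 0.17 and 0.34, Rpl6 at 0.09 and 0.33 and Rplp0, the base of the stalk, at 0.16 and 0.30.

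Members that read lower did so by small amounts. Rps14, whose human counterpart lies in the segment lost in the 5q- syndrome, had the most negative difference on FLASH, reading 7.96 on FLASH and 8.09 on CDR, against 8.39 on the non-irradiated array, differences of -0.43 and -0.29. Rps4l had the most negative difference on CDR, at -0.37, but stood at 0.26 on FLASH. RefSeq annotates Rps4l and Rpl6l as pseudogenes, and Rpl6l stood at 0.12 on FLASH and -0.19 on CDR. Rps26, a platform protein at the mRNA exit that is mutated in some Diamond-Blackfan anaemia, stood at -0.05 on FLASH and -0.27 on CDR. Rpl3, at the peptidyl transferase centre, stood at 0.03 and -0.22. Rpl39l, the testis copy of Rpl39, stood at -0.15 on both. On FLASH the next most negative were Rps15a at -0.14, Rps27 at -0.11, Rps3 at -0.09 and Rps20 at -0.07. None of these differences reached 1.5-fold.

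Some members did not differ at all to the last deposited digit, though a smaller share than of all named genes. All 3 arrays held the same value for 8 members (13.6%), namely Rpl8 and Rpl22, Rpl21, Rpl23, Rpl31, Rps24, Rpl3l and Rpl32l, and for 39.8% of all named genes. The FLASH and CDR arrays were tied for 18 members (30.5%), and for 54.1% of all named genes. Such ties hung on the processing: with quantile normalisation 1 member was tied between FLASH and CDR, and with cyclic loess 0. How exact ties arose was not tested. Among detected members 33 read above, 13 below and 9 equal to the non-irradiated array on FLASH, where 33.8%, 33% and 33.2% of detected genes did. On CDR the counts were 29, 17 and 9, where 34.7%, 30.4% and 34.9% of detected genes did. Rps2, which had to differ, is among the higher ones here and in the band under 6. Without it 32 of 54 members read above on FLASH and 28 of 54 on CDR. Over all 59 members, detected or not, the counts were 35, 13 and 11 on FLASH and 30, 17 and 12 on CDR. By band of log2 level, the members above the non-irradiated array on FLASH were 8 of 12 under 6, 11 of 15 from 6 to 8, 10 of 15 from 8 to 10 and 4 of 13 at 10 and over. All detected genes above it there were 1023 of 4871, 1769 of 5064, 1403 of 2818 and 297 of 535. On CDR the members were 6 of 12, 11 of 15, 7 of 15 and 5 of 13, and all detected genes 996 of 5031, 1896 of 5064, 1474 of 2818 and 302 of 535. These splits depended on the scaling: with each array centred on its median, 45 members were higher and 10 lower on FLASH, and 43 and 12 on CDR, beside 69.6% and 74.6% of all detected genes higher. With quantile normalisation 38 and 36 members were higher, beside 58.8% and 60.5% of detected genes, and with cyclic loess 31 and 29, beside 55.4% and 51.9%.

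The subunits had similar medians. Large subunit genes had a median of 0.04 on FLASH and 0.08 on CDR over 34 detected members, and small subunit genes 0.05 and 0.00 over 21. The sign of the small subunit median on CDR depended on the scaling, from -0.04 with one normalisation to 0.06 with another. Of the 8 members at least 1.5-fold higher, 4 belonged to each subunit. Roles were grouped after the values were seen. By place in the ribosome, the 3 detected proteins of the peptidyl transferase centre (Rpl3, Rpl4 and Rpl8) lay between 0.00 and 0.03 on FLASH and between -0.22 and 0.01 on CDR. The 5 measured exit ring proteins ran from -0.05 to 0.39 and from -0.05 to 0.42. The 6 members grouped as head proteins of the small subunit ran from -0.07 to 1.57 on FLASH and from -0.09 to 1.06 on CDR. Rps20 was at the low end of these 6 and Rps15 at the high end in both. Rps3, at -0.09 on FLASH and -0.04 on CDR, was grouped with the mRNA entry and is not among them. Platform proteins had a median of -0.03 on FLASH and -0.20 on CDR over 4 genes.

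Of 19 genes whose human counterparts are mutated in Diamond-Blackfan anaemia, 12 were measured. Their median was 0.00 on FLASH, with a sign that depended on the scaling, and 0.03 on CDR, and 0 and 2 of them (Rpl5 and Rps29) were at least 1.5-fold higher, beside 3.59% and 3.2% of detected genes. Rps19, the gene most often mutated in that disease, read 8.31 on FLASH and 8.45 on CDR, against 8.22 on the non-irradiated array. Rpl35a stood at 0.04 and 0.06, and Rps24 at 0.00 on both. The copies Rps27l and Rpl36al gave small differences from the non-irradiated array, while Rps4l, given above, stood at 0.26 on FLASH and -0.37 on CDR. Rps27l, a p53 target, read 10.05 on FLASH and 10.01 on CDR, against 9.87, differences of 0.18 and 0.15, while Rps27 stood at -0.11 on both. Rpl36al, a copy of Rpl36a on another chromosome, stood at 0.05 and 0.01, where Rpl36a stood at 0.42 and 0.65.

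The size of a difference went with the level of the probe set. All 8 members at least 1.5-fold higher had a mean level over the 3 arrays between 4.38 and 8.88. The 13 members with a mean level of 10 or more ran from -0.09 to 0.07 on FLASH and from -0.27 to 0.11 on CDR. Over all 535 detected genes of that band the SD of the differences was 0.25 and 0.36, against 0.05 and 0.10 over the 13 members. In the band from 6 to 8, 3 of 15 members on FLASH and 4 of 15 on CDR were at least 1.5-fold higher, against 3.97% and 3.81% of all 5064 detected genes there. Under 6 the counts were 2 and 3 of 12, Rps2 included, against 3.51% and 2.41% of all detected genes. All 8 of the higher members have at least 1 pseudogene named after them in RefSeq, from 1 for Rps29 to 12 for Rps2, as do 33 of the other 51. The part of pseudogene signal or of signal level in these differences was not tested.

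**Figure D3:**
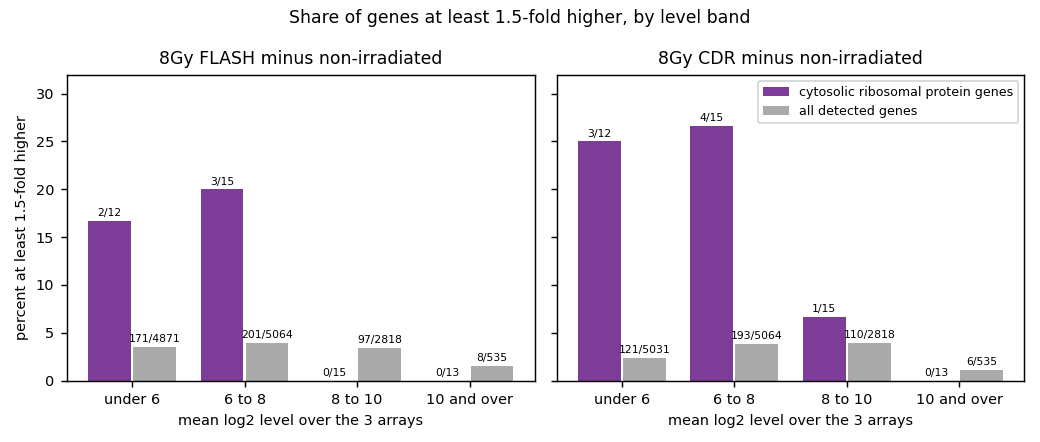
Percent of genes at least 1.5-fold higher than on the non-irradiated array (y axis) by mean log2 level (x axis), for 8Gy FLASH on the left and 8Gy CDR on the right, with members in purple, all detected genes in grey and counts above each bar. The share of members is above that of all genes under a level of 8, and is 0 of 13 at a level of 10 and over. From 8 to 10 it is 0 of 15 on FLASH and 1 of 15 on CDR, against 3.44% and 3.90% of all detected genes.

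The FLASH and CDR arrays were set against each other to ask whether dose rate went with a difference in ribosomal protein genes at the same dose. Members differed little. The median over 55 detected members was 0.00 and the mean -0.02, with 17 higher on FLASH, 23 lower and 15 equal, where 25.6%, 31.9% and 42.4% of 13184 detected genes were. With median centring 12 were higher and 43 lower, beside 20.7% of detected genes higher, and with cyclic loess 32 were higher and 23 lower, beside 56.2%, so this split followed the scaling. Past 1.5-fold on the higher side was 1 member, Rps4l, beside 1.85% of detected genes, and at least 1.5-fold lower was 1 member, Rpl5, beside 0.781%, or 2.63% in either direction. At 2-fold there were 0 members in either direction, beside 0.85% of detected genes higher and 0.144% lower.

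Rpl5 had the most negative difference, at -0.89 (1.86-fold lower on FLASH), reading 6.25 on FLASH and 7.14 on CDR. Rps29 followed at -0.40, Rps13 at -0.35, Rpl6 at -0.24, Rpl36a at -0.23 and Rpl24 at -0.17. In the other direction, Rps4l read 7.50 on FLASH and 6.87 on CDR, a difference of 0.62 (1.54-fold). Rps15 stood at 0.51, Rpl6l at 0.30, Rpl3 at 0.26, Rps26 at 0.21 and Rpsa, the laminin receptor protein of the small subunit, at 0.18. The stalk genes Rplp0 and Rplp1 were at -0.14 and -0.10.

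**Figure D4:**
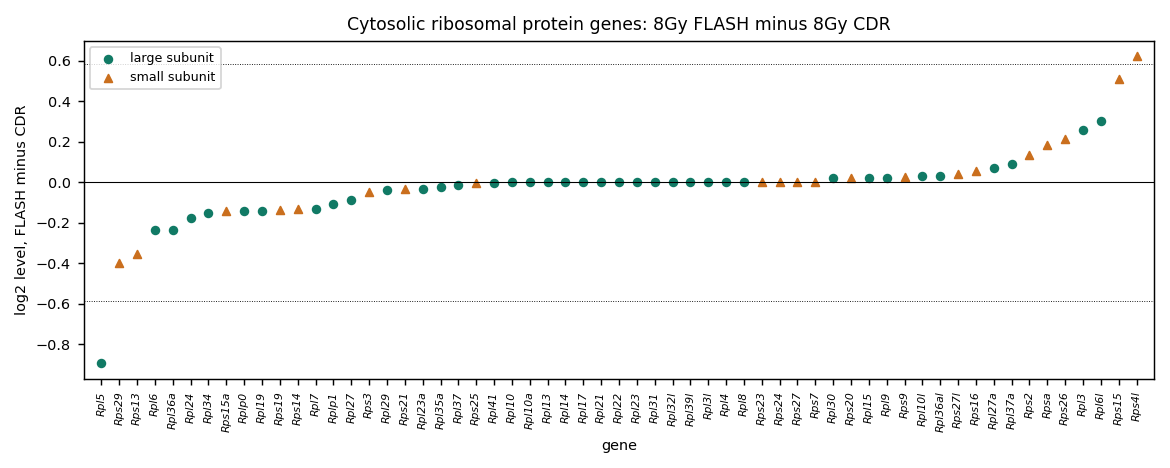
Log2 level on 8Gy FLASH minus that on 8Gy CDR (y axis) for each of the 59 members in ascending order (x axis), with large subunit genes as green circles, small subunit genes as orange triangles and dotted lines at 1.5-fold. Rpl5 lies alone below the lower line at -0.89 and Rps4l above the upper line at 0.62, while 18 members lie exactly at 0.

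Ribosomal proteins that carry other symbols were looked at beside the members. Fau, a fusion of a ubiquitin-like protein with the small subunit protein at the mRNA entry, read 5.40 on FLASH and 5.57 on CDR, against 4.95 on the non-irradiated array, differences of 0.44 and 0.62. Rps3a1 read 6.80 on FLASH, 7.27 on CDR and 6.80 on the non-irradiated array, so that it was tied between FLASH and non-irradiated and 0.47 higher on CDR. Rpl7l1 was tied on all 3 arrays at 7.18. Of 18 pseudogene rows, 10 were detected, with medians of 0.00 on FLASH and -0.01 on CDR and a highest difference of 0.17. Rpl5-ps2 read 2.99 on every array, under the detection level of each.

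In a list of 37 ribosome biogenesis genes, chosen with earlier results of these data known, nearly all read higher on the irradiated arrays. In the deposited values 36 of these 37 genes read higher on FLASH and 37 on CDR, with 0 lower. Medians were 0.30 and 0.32. Of all detected genes 33.8% on FLASH and 34.7% on CDR read higher, and in the band from 8 to 10, which holds the median level of this list, 1403 and 1474 of 2818 did. Noc4l, a small subunit assembly factor, stood at 0.71 on FLASH and 0.79 on CDR, Nolc1, a nucleolar phosphoprotein, at 0.67 and 0.75, Rrp12 at 0.60 and 0.75, and Utp4, of the small subunit processome, at 0.53 and 0.76. Mitochondrial ribosomal protein genes, which encode the separate ribosome of mitochondria, read higher for 69 of 76 on FLASH and 65 of 75 on CDR, with medians of 0.24 and 0.23, beside the same 33.8% and 34.7% of all detected genes. Mrps14 stood at 0.96 and 0.61, Mrpl20 at 0.71 and 0.77 and Mrps33 at -0.09 and -0.07. Whether cytosolic ribosomal protein genes differ from these lists could not be tested with 1 array per group. With the deposited values and 3 other scalings the biogenesis medians ran from 0.28 to 0.33 on FLASH and from 0.28 to 0.38 on CDR. The mitochondrial medians ran from 0.22 to 0.27 and from 0.20 to 0.29. The counts depended on the scaling. With quantile normalisation and with cyclic loess alike, 34 biogenesis genes read higher and 3 lower on FLASH, and 36 and 1 on CDR. Mitochondrial genes lower numbered 8 and 10 with quantile normalisation, and 9 and 11 with cyclic loess. Of all detected genes 58.8% and 60.5% read higher with quantile normalisation, and 55.4% and 51.9% with cyclic loess.

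Initiation factor genes read higher for 17 of 20 detected members on FLASH and on CDR, with medians of 0.19 and 0.21, again beside 33.8% and 34.7% of all detected genes. The median levels of both lists also lie in the band from 8 to 10. Eif2b1, of the exchange factor for eIF2, stood at 0.73 and 0.53, Eif5b at 0.50 and 0.39 and Eif3b at 0.33 and 0.51. Elongation factor and other genes whose mRNAs carry a TOP tract had medians of 0.00 on both arrays over 17 detected members, with 8 higher on each and 6 and 5 lower, and the sign of both medians depended on the scaling. At least 1.5-fold higher were 1 of the 17 on FLASH and 2 on CDR, beside 3.59% and 3.2% of all detected genes. Eef1g, a subunit of elongation factor 1, read 7.49 on FLASH and 7.28 on CDR, against 6.42, differences of 1.07 and 0.86, and Eef1a1 stood at 0.26 and 0.65. Eef2, the translocation factor, was tied on all arrays at 11.70, while Btf3 stood at -0.36 and -0.28 and Eif4a2 at -0.24 and -0.30.

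Genes that control TOP mRNAs and mTORC1 had medians of 0.00 on both arrays over 18 genes. Larp1, the TOP mRNA binding protein, stood at 0.34 on FLASH and 0.53 on CDR and Larp4 at 0.40 and 0.17, while the mTORC1 inhibitors Sesn3 and Sesn1 stood at -0.93 and -0.60 on FLASH and -1.09 and -0.58 on CDR. Mtor was tied on all arrays at 7.43. In the MYC and RNA polymerase list, the MYC antagonist Mxd4 stood at -1.01 on FLASH and -1.08 on CDR, Mycn at -0.51 and -1.09, and Myc at -0.01 and 0.00. Polr1b, a subunit of the polymerase that transcribes ribosomal RNA, stood at 0.37 on both. The medians of that list were 0.02 on both arrays, and changed sign with the scaling. Those of the ribosomal protein chaperone genes were 0.15 and 0.03 over 7 genes, with Heatr3, a carrier of Rpl5 and Rpl11, at 0.36 and 0.26 and Ltv1 at 0.26 and 0.29. The dormancy and rescue list had medians of 0.14 and 0.17 over 12 genes, with Abce1, which splits ribosomes, at 0.40 and 0.42 and Gtpbp2 at -0.22 and -0.41.

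**Figure D5:**
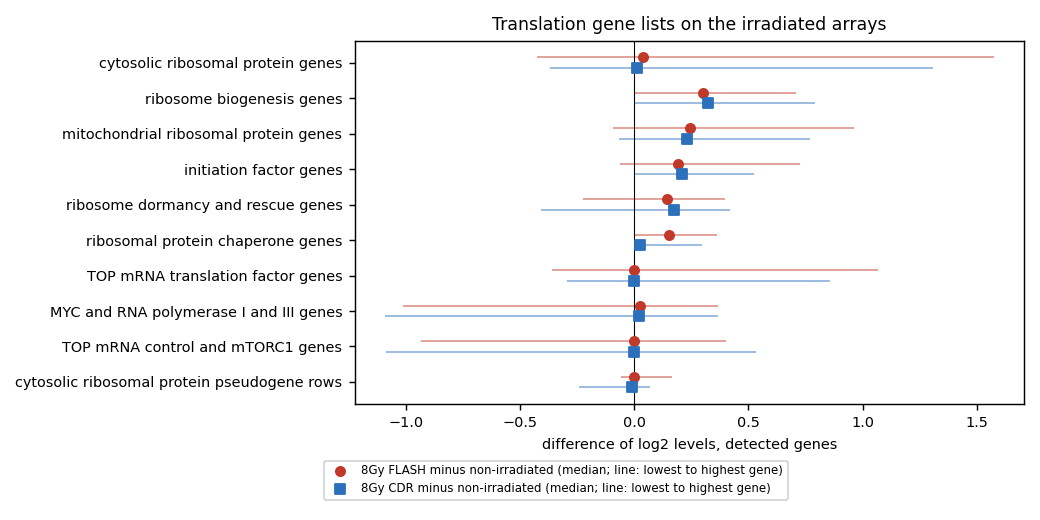
Median difference of log2 levels (x axis) of detected genes in each translation gene list (y axis), 8Gy FLASH minus non-irradiated as red circles and 8Gy CDR minus non-irradiated as blue squares, with lines from the lowest to the highest gene. Cytosolic ribosomal protein genes have medians of 0.04 and 0.01 and the longest lines to the right, while ribosome biogenesis genes have medians of 0.30 and 0.32 and no gene below 0.

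Markers of the cells moved beside these values. All 8 measured LT-HSC markers of 10 were above the detection level on every array, and their summed linear signal was 1642 on FLASH and 1680 on CDR, against 3356 on the non-irradiated array, with median differences of -0.70 and -0.56. Of these 8, 7 read lower and 1 higher (0.11) on FLASH, and all 8 read lower on CDR. The 6 measured erythroid markers of 8 summed to 3271 and 3161, against 1952, and the 6 measured monocyte and dendritic cell markers of 7 to 4224 and 3621, against 2994, with Csf1r and Ly6c2 at -0.78 and -0.59 on FLASH. Sums for 4 megakaryocyte markers of 5 were 982.1 and 949.9, against 1475. For 8 granulocyte markers they were 9827 and 10363, against 9771, although on both irradiated arrays Lcn2 was more than 2-fold higher and Camp, Ngp and S100a9 were each more than 2-fold lower, with Ltf under the detection level on all arrays. For 6 B cell markers of 7 they were 3539 and 1897, against 4248, with Ms4a1 and Ebf1 under the detection level on all arrays. For 5 plasma cell markers they were 1162 and 654.5, against 1292, with Prdm1 under it on all arrays. Of the 4 plasma cell markers detected, 1 was higher on each irradiated array, at 0.34 on FLASH and 0.20 on CDR. Sums for 6 stromal and endothelial markers were 597.6 and 541, against 674.7, with Lepr and Col1a1 under the detection level. Of the 4 detected there, 1 was higher and 3 lower on each irradiated array, the highest at 0.94 on FLASH and 0.12 on CDR. The T cell genes Cd3d, Cd3e and Cd3g read under the detection level on all 3 arrays, and the 5 T cell markers summed to 64.5 and 63.1, against 69.5. The part of a different mix of cells in the ribosomal protein values was not tested.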

How the data were processed

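Expression was measured on Affymetrix arrays in 3 samples, 1 per group, after biotin labelling by the whole transcript sense target assay, per the labels' protocols. The deposited table holds the authors' log2 level of 25206 probe sets, taken as log2 from its range. Per the submitters' processing notes the tool was Partek, and how it corrected, summarised and normalised the signals was not given in the sources used here. GEO's platform annotation gave 1 gene symbol to each of 23185 probe sets, listed none with several, and left 2021 unnamed here and unused. Values were used as deposited. No test was run. Genes were named by rule: all members at least 1.5-fold different, the 6 largest differences in each direction and comparison, members of set roles, paralogs, and up to 3 genes per direction of each other list; further genes were named after their values were seen. The members and lists were chosen with earlier results of these data known. The steps were tested on simulated data. Python 3.11.15, numpy 2.4.6, pandas 2.3.3, matplotlib 3.10.9, R 4.3.3 and limma 3.58.1 were used. Alternatives were median centring, quantile normalisation, cyclic loess, an offset of 32, other filters (none, and a stricter one at the receptor genes' 99th percentile), other members, list means and fold thresholds of 0.32 on the log2 scale and 2-fold.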

Additional observations from a re-analysis of the deposited data

How the results depend on the processing

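The list's median was small under every alternative, and no replicate or batch could be left out with 1 array per group. No paired analysis was possible because each group has 1 array. For FLASH against non-irradiated (0.0387 as reported) it was 0.0635 with median centring, 0.0521 with quantile normalisation, 0.0279 with cyclic loess, 0.0278 with the offset, 0.0341 with no detection filter, 0.0315 without paralogs, 0.174 as a mean and 0.0341 without the rows annotated as pseudogenes. For CDR against non-irradiated (0.0130) it was 0.0704, 0.0686 and 0.00289 with those 3 scalings, 0.0477 with the stricter filter and also without paralogs, 0.0317 without members that have a pseudogene row and also without rows annotated as pseudogenes, and 0.193 as a mean. For FLASH against CDR (0) it was -0.0326 with median centring, -0.00630 with quantile normalisation and -0.0185 as a mean. The median over all detected genes moved too. With median centring it was 0.0248 on FLASH and 0.0574 on CDR against non-irradiated, and -0.0326 for FLASH against CDR. With quantile normalisation these were 0.0200, 0.0353 and -0.0153, and with cyclic loess 0.00224, 0.00157 and 0.00231. Members higher on FLASH than on CDR numbered 32 of 55 with cyclic loess (23 lower, 0 equal) and 12 with median centring (43 lower), against 17 as deposited (23 lower, 15 equal). Members past the fold threshold numbered 14 at the lower threshold (0.32 on the log2 scale), against 5 at 1.5-fold, for FLASH against non-irradiated, and 17 at the lower threshold and 5 at 2-fold, against 8, for CDR. For FLASH against CDR the count of 2 became 5 at the lower threshold, 0 at 2-fold, 1 with the offset, 1 without paralogs, 0 without members that have a pseudogene row and 1 without rows annotated as pseudogenes. The share of all detected genes past the lower threshold was not counted. With deposited values and all 3 scalings, 0 members were at least 1.5-fold lower on either irradiated array than on the non-irradiated one. Raising dim values and leaving out pseudogene rows were chosen after seeing the data.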
